A study of Homo sapiens with 6 samples.

Results

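Small nucleolar RNAs (snoRNAs) and small Cajal body RNAs (scaRNAs) were examined in U251 cells, a human glioma cell line, after exposure to sevoflurane (Sev), an inhaled anaesthetic. The 162 members were the rows of the deposited gene count table whose Ensembl identifier carries a symbol starting with SNORA, SNORD or SCARNA and whose count, summed over the 6 libraries, was at least 60. They were 162 of 552 such rows, in a table of 61496 rows. The members comprised 65 of 314 box C/D snoRNAs (SNORD), 80 of 213 box H/ACA snoRNAs (SNORA) and 17 of 25 scaRNAs (SCARNA). They were thus chosen by their total count over both groups, which is no finding, and not by the difference between the groups. Just inside the minimum, SNORA80D and SNORA38B each had 61 counts in all, and just outside it SNORD56B and SNORA70B each had 58.

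The study sequenced total RNA, depleted of ribosomal RNA and broken into fragments averaging about 200 bases, from 3 control libraries of untreated U251 cells and 3 libraries of U251 cells exposed to Sev for 2 h. Both groups were the same cell line, grown in DMEM with serum, and nothing in the labels says whether the 3 libraries of a group came from separate cultures, so the p-values measure only the spread between these libraries. The labels list Sev at 1.7%, 3.4% and 5.1% without assigning a concentration to a library. The text of the study names 5.1% for the sequenced cells. The libraries held 38624292 to 46318311 counts, and the members took 0.0632% to 0.0644% of the counts in control and 0.0773% to 0.0863% in Sev.

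The label of the cells was checked against marker genes. Of 9 glial and glioma markers, 8 were present, from S100B at a mean of 22.2 CPM (counts scaled to a common library size) in control to VIM at 5490 CPM, whereas AQP4 had between 0 and 17 counts per library. Between groups, S100B fell to 10.3 CPM, SOX2 fell from 286 to 173 CPM and CD44 rose from 385 to 755 CPM (edgeR adjusted p = 0.00215, 0.000367 and 0.000174). Among markers of other cells, PTPRC (leukocytes), EPCAM (epithelium) and DCN (fibroblasts) had at most 12 counts per library. PECAM1, CDH5, COL1A1, RBFOX3 and MBP were at means of 0.693, 4.07, 11.1, 1.43 and 2.52 CPM in control. PECAM1 and MBP rose to 1.31 and 5.06 CPM in Sev (edgeR adjusted p = 0.0409 and 0.00588), while CDH5, COL1A1 and RBFOX3 were at 3.86, 12.8 and 1.24 CPM there. The part of all these markers in the results below was not tested. In bulk RNA, fewer cells expressing a gene and less RNA per cell cannot be told apart.

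Most human snoRNAs lie inside introns of other genes, are cut out of the spliced intron and are protected by a set of core proteins. Box C/D RNAs guide ribose methylation, and box H/ACA RNAs guide pseudouridylation, mainly of ribosomal RNA. scaRNAs carry either or both kinds of box, reside in Cajal bodies and guide the same modifications on the RNAs of the spliceosome. A few snoRNAs act in cleavage of the ribosomal RNA precursor, some of them in addition to guiding modification: U3 (SNORD3), U14 (SNORD14), U8 (SNORD118) and U22 (SNORD22) among the C/D class, and U17 (SNORA73) among the H/ACA class. Because of the intronic location, reads of unspliced host RNA can be counted in a snoRNA row, and this fraction could not be separated from mature RNA here.

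The sequences below belong to members whose values carry the results, taken from the GENCODE 29 transcripts (GRCh38) by Ensembl identifier and written as DNA, 5′ to 3′. SNORD3D (chr17:19112420-19112636, minus strand) is the shortest U3 row, and the other U3 rows start with the same 217 bases at 98.2% to 99.1% identity, so reads of the copies may be split among them. SNORA73A (chr1:28507366-28507571) and SNORA73B (chr1:28508559-28508762), both on the plus strand, are the U17 copies, alike at 192 of 203 aligned positions. SNORA80B (chr2:10446714-10446849, minus strand), SNORD19 (chr3:52689248-52689315) and SNORD19C (chr3:52691378-52691453, both on the plus strand) are rarer members that were higher in Sev along with their hosts. SNORD14E (chr11:123058077-123058161) and SNORD14A (chr11:17074654-17074744), both on the minus strand, are U14 copies in different host genes. SCARNA16 (chr17:77089307-77089493, plus strand) had the largest fold change among the called scaRNAs. Capitals mark box D (CTGA, last 15 bases) in SNORD3D, boxes C (TGATGA, first 20 bases) and D in the U14 copies, the ACA box (last 8 bases) in the H/ACA RNAs and SCARNA16, and, in SNORD19 and SNORD19C, the 17 bases that both share.
SNORD3D: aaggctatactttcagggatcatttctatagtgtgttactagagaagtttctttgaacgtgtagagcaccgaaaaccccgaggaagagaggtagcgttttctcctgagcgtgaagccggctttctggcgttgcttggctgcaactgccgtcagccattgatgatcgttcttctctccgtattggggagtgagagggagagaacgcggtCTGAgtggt
SNORA73A: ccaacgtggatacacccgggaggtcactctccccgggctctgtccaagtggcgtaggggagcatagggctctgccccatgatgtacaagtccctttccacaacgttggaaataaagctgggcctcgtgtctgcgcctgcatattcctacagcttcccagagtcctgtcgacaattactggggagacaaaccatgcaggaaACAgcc
SNORA73B: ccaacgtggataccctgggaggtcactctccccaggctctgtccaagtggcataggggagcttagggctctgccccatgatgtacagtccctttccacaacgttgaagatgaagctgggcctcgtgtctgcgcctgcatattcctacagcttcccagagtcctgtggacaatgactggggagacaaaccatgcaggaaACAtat
SNORA80B: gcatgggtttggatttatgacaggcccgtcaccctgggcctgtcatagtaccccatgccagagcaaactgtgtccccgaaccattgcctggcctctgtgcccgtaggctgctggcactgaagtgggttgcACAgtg
SNORD19: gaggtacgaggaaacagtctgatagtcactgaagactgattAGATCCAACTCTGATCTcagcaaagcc
SNORD19C: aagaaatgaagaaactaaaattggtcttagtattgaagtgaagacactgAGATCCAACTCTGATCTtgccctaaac
SNORD14A: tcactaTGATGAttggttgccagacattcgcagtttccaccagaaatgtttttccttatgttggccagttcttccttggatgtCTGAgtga
SNORD14E: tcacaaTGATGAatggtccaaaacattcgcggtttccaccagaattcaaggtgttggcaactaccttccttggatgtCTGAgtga
SCARNA16: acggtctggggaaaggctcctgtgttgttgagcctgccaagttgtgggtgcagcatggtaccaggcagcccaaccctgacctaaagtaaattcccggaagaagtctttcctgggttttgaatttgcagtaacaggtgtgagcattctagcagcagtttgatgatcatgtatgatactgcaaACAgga

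On the given strand, box C (TGATGA) stood in the first 20 bases of 35 of the 65 C/D members (53.8%) and box D (CTGA) in the last 15 bases of 55 (84.6%). The ACA box stood in the last 8 bases of 69 of the 80 H/ACA members (86.2%). Among 5989 other short RNAs of at most 400 bases (snRNA, miRNA and miscellaneous RNA genes), 0.3%, 4.2% and 6.6% held these motifs in the same windows. The scaRNA members were mixed, with box C in 29.4%, box D in 41.2% and ACA in 58.8%. SNORD19 and SNORD19C held none of the exact letters in these windows. The median length was 88 bases for C/D, 134 for H/ACA and 187 for scaRNA members.

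All 162 members were found in GENCODE 29. Of them, 147 lay within another gene on the same strand, the host, giving 106 hosts, 88 of them protein coding. In 59 members the row also overlapped an exon of another gene on the same strand, and 15 members had a symbol carried by more than 1 identifier. Counts were concentrated in few rows. The 6 most abundant members, SNORA73A, SNORA73B, SNORD3B-1, SCARNA2, SNORD3B-2 and SCARNA5, held 63.0% of all 177519 member counts, whereas the median member had 167 counts over the 6 libraries.

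Between groups, a small number of abundant snoRNAs and scaRNAs were higher in Sev, and most members did not pass the test. Of 155 members that passed the expression filter, 21 were higher and 10 were lower at an adjusted p under 0.05 (edgeR quasi-likelihood test, Benjamini-Hochberg over 27514 features). These are 13.5% and 6.45% of the tested members. On the deposited FPKM, limma on log2(FPKM + 1) called 27 higher and 29 lower, so the balance of the calls depends on the scale. In edgeR, 22.1% of all tested features were higher and 21.5% lower (43.7% either way), and both edgeR member shares lay below these values. That difference was not tested. The share of all features called by limma is not given here, so the limma counts have no such comparison. At the threshold the study used, a log2 fold change beyond 1 with an unadjusted p under 0.05, 6 members were higher and 9 lower, beside 11.4% and 12.0% of all features. The median log2 fold change was 0.04 over the members and -0.01 over all features. The 7 members that did not pass the filter were SNORD12B, SNORA80D, SNORD118, SNORD22, SNORA40, SNORA44 and SNORA38B. SNORD12B had 41, 3 and 34 counts in control and 3, 4 and 5 in Sev, and met the count minimum through the control group. In some fits with 1 library left out it was tested, at -2.97 to -2.3 (edgeR adjusted p 0.00356 to 0.119).

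The shares of all features, 22.1% higher and 21.5% lower, stand beside the following counts by class. Of 62 tested C/D members, 9 were higher and 5 lower (14.5% and 8.06%), with a median log2 fold change of 0.01. Among H/ACA members, 7 were higher and 4 lower of 76 (9.21% and 5.26%), with a median of 0.01. Among scaRNAs, 5 were higher and 1 lower of 17 (29.4% and 5.88%), with a median of 0.37. The scaRNA members were also longer: 10 of 17 exceeded 150 bases, beside 7 of 65 C/D and 13 of 80 H/ACA members. Over all classes, members longer than 150 bases had a median of 0.48. The part of length in the class difference was not tested. Scaling to library size alone shifted the median of all features from -0.01 to -0.15 and turned the C/D and H/ACA medians to -0.13 each, while the scaRNA median stayed positive. limma on log2(FPKM + 1) called 12 higher and 14 lower among C/D members and 11 higher and 12 lower among H/ACA members, and 4 higher and 3 lower among scaRNAs. No share of all features is given for limma. The groups did not overlap in 42 members higher and 24 lower in Sev, beside 28.3% and 28.2% of all features (56.5% either way).

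**Figure D1:**
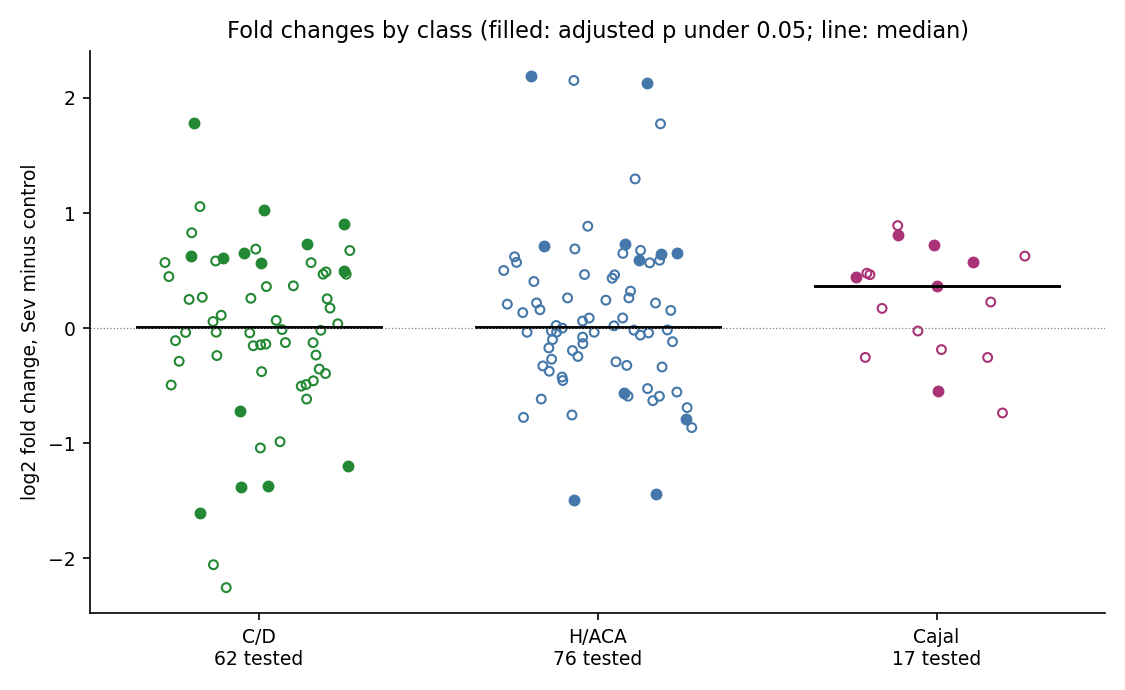
Log2 fold change (Sev minus control) of the 155 tested members by class, with filled points for an adjusted p under 0.05 and a line at the class median. The medians of the C/D and H/ACA classes lie at 0.01 (-0.13 with library size scaling alone), and that of the scaRNAs (Cajal) at 0.37.

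U3 was higher in all 5 of its members, although the call of SNORD3B-2 depended on the libraries and the scale. U3 binds the ribosomal RNA precursor and is needed for its early cleavages on the way to 18S. SNORD3B-1 had 56.1, 53.2 and 58.7 TMM-scaled CPM in control and 86.1, 77.4 and 84.5 in Sev (log2 fold change 0.56 ± 0.08 SE, adjusted p = 0.00152). SNORD3D rose from 16.2 ± 0.771 to 22.7 ± 1.55 CPM (SD, n = 3 each, edgeR adjusted p = 0.00697). All Sev libraries lay above all control libraries in both rows. SNORD3A (log2 fold change 0.61, adjusted p = 0.00483) and SNORD3C (0.65, adjusted p = 0.0114) also rose. SNORD3B-2 had 35.9, 38.1 and 40.9 CPM in control and 50.9, 116 and 49 in Sev, so its fold change of 0.91 (adjusted p = 0.0462) drew mostly on Sev replicate 2. Without that library it was 0.39 (adjusted p = 0.0178), and its call was lost with library size scaling alone (adjusted p = 0.0669) and in limma on log2(FPKM + 1) (adjusted p = 0.111). Summed over the 5 copies, U3 had 124, 121 and 130 CPM in control and 184, 234 and 181 in Sev, a log2 ratio of means of 0.68, or 0.53 with library size scaling alone.

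The U17 copies SNORA73A and SNORA73B, H/ACA RNAs of ribosomal RNA cleavage, held the most counts of all members and were higher in Sev. SNORA73A had 80.9, 96.8 and 90.2 CPM in control and 164, 145 and 135 in Sev (log2 fold change 0.73 ± 0.10, edgeR adjusted p = 0.00127). SNORA73B had 90.4, 91.8 and 96.7 CPM in control and 158, 137 and 125 in Sev (0.59 ± 0.10, adjusted p = 0.00271). The groups were clearly apart in both copies. Their common host, the long non-coding RNA SNHG3, moved the other way, from 96.5 ± 5.07 to 60.8 ± 1.08 CPM (log2 fold change -0.67, edgeR adjusted p = 0.000546). SNORA73A overlaps an SNHG3 exon, and SNORA73B does not. A pair of rare rows also named SNORA73 did not pass the test. The row in MIB1 had 22, 21 and 17 counts in control and 11, 10 and 10 in Sev (-0.78 ± 0.34, adjusted p = 0.10), and the row in RNGTT was at 0.57 ± 0.44 (adjusted p = 0.323).

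U14 copies in HSPA8, which encodes the constitutive heat shock cognate chaperone, were lower in Sev. SNORD14D had 3.59, 1.77 and 2.55 CPM in control and 1.11, 0.852 and 1.06 in Sev (log2 fold change -1.38 ± 0.29, edgeR adjusted p = 0.00711). SNORD14E had 3.71, 1.34 and 2.18 CPM in control and 1.30, 0.665 and 0.833 in Sev (-1.37 ± 0.41, adjusted p = 0.0296). Control replicate 2 was the lowest of the control libraries in both rows, close to the highest Sev library in SNORD14E. SNORD14C, the other copy in HSPA8, had 131, 36 and 105 counts in control and 1, 7 and 42 in Sev, and did not pass the test (adjusted p = 0.0653, and 0.00766 without Sev replicate 3). SNORD14D and SNORD14C overlap an HSPA8 exon on the same strand. SNORD14E overlaps no such exon, but its call depended on the libraries. The part of exon reads in these rows was not tested. HSPA8 itself stood at 664 ± 122 CPM in control and 678 ± 30.1 in Sev (log2 fold change 0.03, adjusted p = 0.87). SNORD14A, in RPS13, had 20, 23 and 32 counts in control and 25, 21 and 19 in Sev (log2 fold change -0.01 ± 0.29, adjusted p = 0.976). Summed over the 3 HSPA8 copies, U14 was 7.11 ± 3.2 CPM in control and 2.37 ± 0.628 in Sev, without overlap.

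The rows of U8 and U22 did not pass the filter of the fit on all libraries, so neither has a test there. SNORD118 (U8), which acts in 28S and 5.8S maturation, had 1, 146 and 1 counts in control and 1, 183 and 1 in Sev. It passed the filter in some fits with 1 library left out. There its log2 fold change was -0.179 to 0.999, with edgeR adjusted p from 0.688 to 0.955. SNORD22 (U22) had 74, 1 and 1 counts in control and 4, 2 and 4 in Sev. Counts near 150 and counts of 1 thus occurred among replicates of the same group. Of the U13 family, the SNORD13 row was at 0 in every library. SNORD13D had 31, 25 and 18 counts in control and 8, 10 and 14 in Sev (log2 fold change -1.04 ± 0.39, edgeR adjusted p = 0.0632, 0.0445 with library size scaling alone and 0.0464 without control replicate 3), and SNORD13E was at 0.83 ± 0.41 (adjusted p = 0.138).

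**Figure D2:**
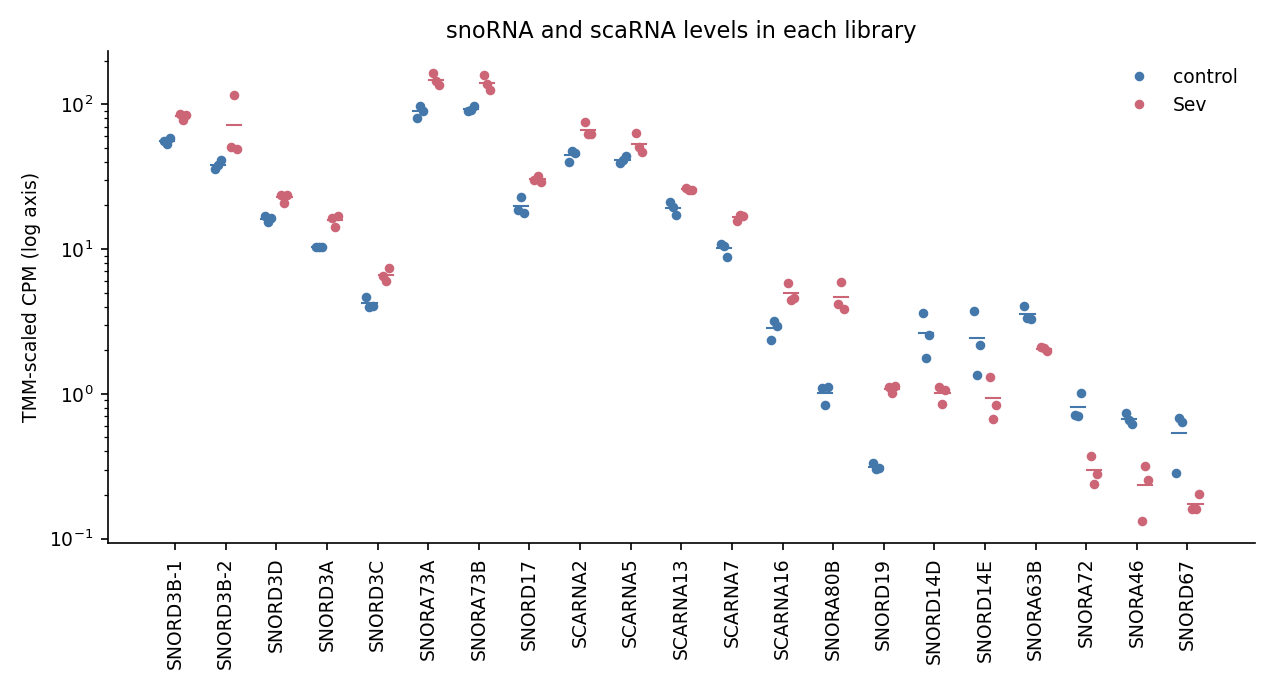
TMM-scaled CPM on a log axis for 21 called members in each of the 3 control and 3 Sev libraries, with bars at the group means. The plotted U3 (SNORD3) rows and SNORA73A and SNORA73B sit higher in Sev, SNORD3B-2 with Sev replicate 2 apart at 116 CPM, and SNORD14D and SNORD14E sit lower.

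Among other C/D members, SNORD19 had the largest rise. It had 14, 12 and 15 counts in control and 42, 38 and 45 in Sev (log2 fold change 1.78 ± 0.26, edgeR adjusted p = 0.00136). SNORD19C, from the same host, had 16, 15 and 12 counts in control and 32, 24 and 22 in Sev (1.03 ± 0.34, adjusted p = 0.0394), a call lost with library size scaling alone (0.0663) and in DESeq2 (0.0825). In both rows all Sev libraries were above all control libraries. SNORD69, also in this host, was at 0.69 and did not pass the test (adjusted p = 0.064). Its groups did not overlap, and limma on log2(FPKM + 1) called it higher (adjusted p = 0.0321). The host GNL3, which encodes the nucleolar GTP-binding protein nucleostemin, rose from 54.9 ± 7.81 to 117 ± 13.4 CPM (log2 fold change 1.10, adjusted p = 0.000571). SNORD17, the third most abundant C/D row, rose from 19.7 ± 2.7 to 30.3 ± 1.43 CPM (0.62 ± 0.12, adjusted p = 0.00462), while its host SNX5 was at 0.06 (adjusted p = 0.648). SNORD15B, in RPS3, was at 1.15 ± 0.25 CPM in control and 1.92 ± 0.389 in Sev (adjusted p = 0.0483, 0.109 with library size scaling alone and 0.0508 in DESeq2).

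The other lower C/D members had at most 69 counts in any library. SNORD67, in CKAP5, had 12, 27 and 31 counts in control and 6, 6 and 8 in Sev (log2 fold change -1.60 ± 0.45, edgeR adjusted p = 0.0216). SNORD87, in SNHG6, had 37, 42 and 40 counts in control and 15, 10 and 21 in Sev (-1.20 ± 0.32, adjusted p = 0.0192). SNORD101, in the ribosomal protein gene RPS12, had 55, 47 and 69 counts in control and 30, 30 and 31 in Sev (-0.72 ± 0.22, adjusted p = 0.0288), whereas RPS12 rose (log2 fold change 0.34, adjusted p = 0.0345). None of these groups overlapped. SNORD67, with 70 counts in control and 20 in Sev, met the count minimum through the group where it was high. SNORD101 was not called in DESeq2 (adjusted p = 0.0818). The host CKAP5 also fell (-0.31, adjusted p = 0.00829), and SNHG6 was at 0.41 (adjusted p = 0.145).

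Several C/D RNAs of known use or location were low or absent. Of the RPL13A intron RNAs, SNORD34 had 11 to 33 counts per library (adjusted p = 0.387), and SNORD32A had 63, 58 and 76 in control and 1, 38 and 2 in Sev (adjusted p = 0.0949, and 0.000435 without Sev replicate 2). SNORD33 and SNORD35A had at most 1 count in any library. SNORD48, a small RNA often used as a reference, had 25 counts in all. Of the SNORD116 copies in SNHG14, 3 were members, with log2 fold changes of -0.38, -0.13 and 0.49 and edgeR adjusted p from 0.257 to 0.794. SNHG14 fell (-0.56, adjusted p = 0.00501). In SNORD116-13 (-0.38) the groups did not overlap, and limma on log2(FPKM + 1) called it lower (adjusted p = 0.00394). The other copies were not called there (0.279 for SNORD116-23 and 0.343 for SNORD116-15). No SNORD115 copy reached the minimum.

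Among H/ACA members, SNORA80B had the largest fold change of those called. It lies in ODC1, which encodes ornithine decarboxylase, the rate-limiting enzyme of polyamine synthesis. SNORA80B had 46, 33 and 54 counts in control and 157, 221 and 152 in Sev (log2 fold change 2.19 ± 0.24, edgeR adjusted p = 0.000436), and ODC1 rose from 141 ± 9.21 to 321 ± 14.9 CPM (1.19, adjusted p = 9.49e-05). The lowest Sev library held 152 counts and the highest control library 54. SNORA84, in IARS1, had 4, 5 and 5 counts in control and 14, 30 and 11 in Sev (2.13 ± 0.53, adjusted p = 0.0136), so its fold rests on few reads. With 14 counts in control and 55 in Sev, it met the count minimum through the group where it was high. SNORA23 rose from 7.01 ± 0.493 to 10.9 ± 2.14 CPM (0.64, adjusted p = 0.0187). SNORA74A, also named U19, was at 4.03 ± 0.961 and 6.59 ± 1.47 CPM (adjusted p = 0.0456), and SNORA3B at 1.36 ± 0.237 and 2.13 ± 0.257 CPM (adjusted p = 0.0434). Both calls were lost with library size scaling alone (adjusted p = 0.0898 and 0.091), and that of SNORA3B also in DESeq2 (adjusted p = 0.0528).

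Lower H/ACA members included both in EIF4A2, which encodes a helicase of translation initiation. SNORA63B had 170, 133 and 159 counts in control and 79, 78 and 78 in Sev (log2 fold change -0.79 ± 0.17, edgeR adjusted p = 0.00763). SNORA4 had 229, 200 and 235 counts in control and 157, 109 and 131 in Sev (-0.56 ± 0.18, adjusted p = 0.0364). EIF4A2 also fell, from 220 ± 15.8 to 139 ± 3.63 CPM (-0.66, adjusted p = 0.000658), and both rows overlap an exon of it. SNORA72, in NUCKS1, had 30, 28 and 49 counts in control and 14, 9 and 11 in Sev (-1.44 ± 0.33, adjusted p = 0.00924); its symbol is carried by 8 identifiers. SNORA46, in CNOT1, had 31, 26 and 30 counts in control and 5, 12 and 10 in Sev (-1.50 ± 0.37, adjusted p = 0.0138). SNORA46, with 87 counts in control and 27 in Sev, met the minimum through the control group. Neither NUCKS1 (0.06, adjusted p = 0.609) nor CNOT1 (0.05, adjusted p = 0.602) passed the test.

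Of the 17 scaRNAs, 29.4% were called higher, beside 22.1% of all features, a difference that was not tested. With library size scaling alone, 3 were called higher, and no share of all features is given for that scaling. SCARNA2, a guide for methylation of the U2 spliceosomal RNA, had 39.8, 47.9 and 46.4 CPM in control and 75.7, 62.3 and 62.0 in Sev (log2 fold change 0.58 ± 0.12, edgeR adjusted p = 0.00546). SCARNA7 rose from 10.1 ± 1.07 to 16.6 ± 0.915 CPM (0.72 ± 0.13, adjusted p = 0.00305), with its host KPNA4, an importin, at 0.96 (adjusted p = 0.000152). SCARNA16 had 100, 126 and 143 counts in control and 221, 167 and 181 in Sev (0.81 ± 0.19, adjusted p = 0.0114). Its row overlaps exons of SNHG20 and MIR6516 on the same strand, and its host SEC14L1 was at 0.03 (adjusted p = 0.933). In SCARNA2, SCARNA7 and SCARNA16 the groups were apart. SCARNA13 (0.44, adjusted p = 0.0127) and SCARNA5 (0.37, adjusted p = 0.0415) also rose, and lost their calls with library size scaling alone (adjusted p = 0.071 and 0.16). SCARNA9, another U2 guide, was the scaRNA that fell, from 4.68 ± 0.127 to 3.19 ± 0.414 CPM (-0.55 ± 0.16, adjusted p = 0.0269), and its host CEP295 also fell (-1.33, adjusted p = 0.00187). SCARNA6, SCARNA10, SCARNA12 and SCARNA17 did not pass the test, with log2 fold changes of 0.48, 0.17, 0.46 and 0.89. SCARNA10 lies in NCAPD2, which fell (-0.84, adjusted p = 0.000429).

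Of the 31 calls, 16 held when any 1 of the 6 libraries was left out, 12 of them higher and 4 lower. The calls of SNORD15B and SNORA3B were lost in all 6 such fits (adjusted p 0.0565 to 0.137 and 0.0596 to 0.125, edgeR). SNORD101 kept its call only without control replicate 2, SNORA4 only without Sev replicate 1, and SNORD19C, SCARNA5 and SNORA74A only without Sev replicate 3. The adjusted p in their other fits reached 0.102, 0.0933, 0.141, 0.136 and 0.146. SNORD14E kept it without Sev replicate 1 or control replicate 2 (otherwise 0.058 to 0.097), SNORD67 without Sev replicate 3 or control replicate 1 (otherwise 0.0617 to 0.0816), and SCARNA9 without Sev replicate 2 or 3 (otherwise 0.0561 to 0.0944). SNORD3B-2 lost it without any of the control libraries (0.0954 to 0.132), and SNORA23 without Sev replicate 1 or control replicate 2 or 3 (0.0555 to 0.0687). SNORA84 lost it without control replicate 1 or 3 (0.0523 and 0.0517), SNORD87 without Sev replicate 1 or control replicate 2 (0.0586 and 0.061), and SCARNA13 without control replicate 3 (0.053).

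The calls were unevenly spread over abundance and length. Of the 19 members with at least 1000 counts in all, 14 were higher and 1 was lower, with a median log2 fold change of 0.58. The 14 include the 5 U3 rows and the 2 U17 copies. Rows of each family are nearly identical in sequence and may share reads, so they are not independent. Of 13804 features with at least 1000 counts, 25.3% were higher and 23.9% lower, with a median of 0.02. Of 136 tested members with fewer counts, 7 were higher and 9 lower, and the median was -0.03. From 60 to under 200 counts, 3.45% of the members were higher and 4.6% lower, beside 17.2% and 14.7% of all features, and from 200 to under 1000 counts 8.16% and 10.2%, beside 1341 and 1578 of 6689 features. Likewise, 15 of 30 members longer than 150 bases were higher and 1 was lower (median 0.48), against 6 higher and 9 lower of 125 shorter members (median -0.02), beside 22.1% and 21.5% of all features. The 15 include the same U3 and U17 rows. Annotated length can exceed the shared U3 sequence: SNORD3B-2 is 791 bases long and matches SNORD3D at 215 of 217. Both splits were chosen with the values known and are given as descriptions. Length and abundance went together, with a Pearson r of 0.603 between length and the log2 summed count over 162 members. Against the fold change, r was 0.225 for length, 0.227 for mean CPM and 0.226 for GC content over 155 members, which share libraries.

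**Figure D3:**
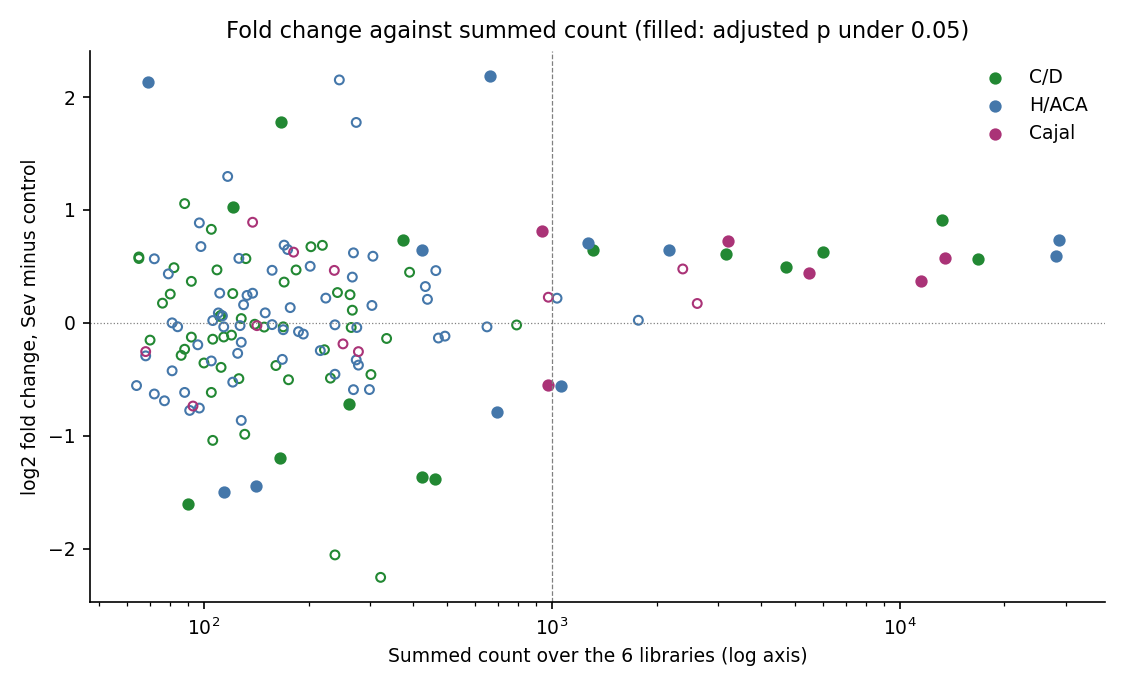
Log2 fold change (Sev minus control) against the summed count over 6 libraries (log axis) for 155 members, coloured by class and filled at an adjusted p under 0.05. Right of the dashed line at 1000 counts, 14 of 19 members are called higher and 1 lower. The 14 include the 5 U3 rows and the 2 U17 copies, nearly identical in sequence within each family.

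Members were compared with the genes they lie in, since an intronic snoRNA is transcribed as part of its host. Over 138 members with a tested host, the member's log2 fold change lay below the host's in 85 and above it in 53, with a median difference of -0.17. The median difference was -0.34 for C/D, -0.14 for H/ACA and 0.30 for scaRNA members. Across these members the Pearson r between the values was 0.389, where members of the same host share its value. Of 13 called members whose host was also called, 10 moved with the host and 3 against it (SNORD101, SNORA73A and SNORA73B). The hosts themselves were higher in 43 and lower in 9 of 104 (41.3% and 8.65%, beside 22.1% and 21.5% of all features), with a median log2 fold change of 0.22. With library size scaling alone, 22 were higher and 14 lower. That scaling also lowered the median of all features, and no share of all features is given for it.

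**Figure D4:**
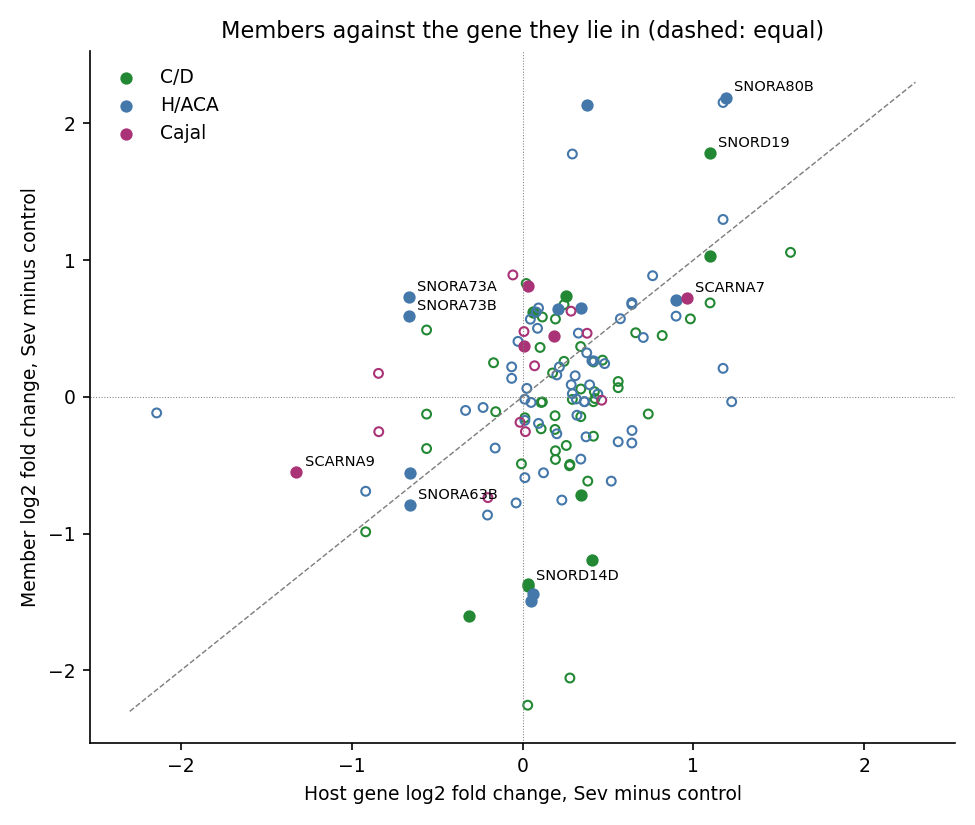
Log2 fold change of each member against that of its host gene (Sev minus control), coloured by class and filled where the member has an adjusted p under 0.05; the dashed line marks equal change. SNORA80B, SNORD19 and SNORA63B lie in the direction of their hosts, SNORA73A and SNORA73B opposite theirs, and SNORD14D far below a host near 0.

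Hosts that carry several members gave mixed pictures. TAF1D holds 5 members, of which 4 were tested and none was called (edgeR, 1 at an unadjusted p under 0.05), and was itself at 0.01 (adjusted p = 0.929). In SNHG1, SNORD26 and SNORD27 were at -0.14 and -0.24 and the host at 0.19 (adjusted p = 0.186). SNHG17 rose (1.17, adjusted p = 0.0014), and its members SNORA71A, SNORA71B and SNORA71D, at 2.15, 0.21 and 1.30, did not pass the test. Control replicate 3 decided SNORA71A and SNORA71D, which were at 5.40 and 4.63 and called without it (adjusted p = 0.00129 and 0.0434). NCL, which encodes nucleolin, rose (0.56, adjusted p = 0.0458), while SNORD20, SNORD82 and SNORA75 in it were at 0.11, 0.07 and -0.33. KANSL2 rose (0.64, adjusted p = 0.00195), with SNORA2B, SNORA2A and SNORA2C at 0.69, -0.34 and 0.68. EIF4A1 was at 0.29 (adjusted p = 0.0719), with SNORD10, SNORA67 and SNORA48 at -0.02, 0.02 and 1.78. SNORA48 had 62 counts in control replicate 3 and 6 and 3 in the other control libraries, and was at 3.97 and called without it (adjusted p = 0.00155). C19orf48P was at 0.19 (adjusted p = 0.25), with SNORD88A, SNORD88B and SNORD88C at -0.39, -0.46 and 0.57. NOP58 was at 0.41 (adjusted p = 0.0584), with SNORD11, SNORD11B and SNORD70 at -0.04, -0.29 and 0.25. The edgeR adjusted p of these members was 0.0723 (SNORA2B) or more, and SNORA48 was called in DESeq2 (adjusted p = 0.041). limma on log2(FPKM + 1) called SNORA2B (0.0227), SNORA48 (0.0404), SNORD88A (0.0212) and SNORD88C (0.0376) here, as well as SNORA71A (0.0301) in SNHG17 and SNORA18 (0.0174) in TAF1D. RPL13A (0.28, adjusted p = 0.0272), RPSA (0.36, adjusted p = 0.0232) and RACK1 (0.38, adjusted p = 0.0141) rose. GAS5, a snoRNA host known from growth-arrested cells, was at -0.20 (adjusted p = 0.102).

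Genes for the proteins that bind, assemble and trim these RNAs were taken from a list of 40. In edgeR, 14 were higher and 3 lower (median log2 fold change 0.19), beside 22.1% and 21.5% of all features. With library size scaling alone, 10 were higher and 8 lower, with a median of 0.05. That scaling also lowered the median of all features, and no share of all features is given for it. All 4 core H/ACA protein genes rose: DKC1, the pseudouridine synthase dyskerin, from 52.3 ± 8.3 to 103 ± 8.71 CPM (0.97, adjusted p = 0.000954), NHP2 by 0.73, GAR1 by 0.65 and NOP10 by 0.32. Of the 4 core C/D protein genes, the methyltransferase gene FBL rose (0.51, adjusted p = 0.00413), and NOP56, NOP58 and SNU13 were at 0.31, 0.41 and -0.22 without passing the test. NOLC1, a nucleolar and Cajal body phosphoprotein, rose by 0.78, and the debranching enzyme gene DBR1 by 0.55. GEMIN2 (-0.95), the exonuclease gene XRN1 (-0.36) and RPAP3 (-0.29) fell. COIL and WRAP53, the genes for Cajal body proteins coilin and TCAB1, were at 0.22 (adjusted p = 0.311) and 0.05 (adjusted p = 0.773).

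For comparison, 292 other small structured RNAs, such as spliceosomal, Y, vault and signal recognition particle RNAs, met the same count minimum. Of 279 tested, 47 were higher and 37 lower (16.8% and 13.3%, beside 22.1% and 21.5% of all features), with a median log2 fold change of 0.07. RNU2-2P, a U2 row, was at 79.3 ± 2.87 CPM in control and 138 ± 23 in Sev (log2 fold change 0.81, adjusted p = 0.0017), and RPPH1, the RNA of ribonuclease P, was at 4220 ± 278 and 6000 ± 1100 CPM (0.51, adjusted p = 0.0234). RN7SL1 (0.50, adjusted p = 0.0369), RNU1-1 (0.64, 0.0157) and RNU1-28P (0.63, 0.0271) also rose. RMRP (0.23, adjusted p = 0.233), RN7SK (0.28, 0.0864), RN7SL2 (0.20, 0.758), RN7SL5P (0.44, 0.206) and RN7SL4P (-0.35, 0.869) did not pass the test.

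Some members alternated between near absence and clear counts. Of the 162 members, 14 (8.64%) had at most 3 counts in at least 1 library and at least 30 in another, against 1111 of 27340 rows (4.06%) with the same count minimum. They were 11 of the 59 members that overlap an exon of another gene (18.6%) and 3 of the 103 that do not (2.91%). In 13 of the 14 the change occurred within a group. SNORA40 had 77 counts in Sev replicate 1 and 1 in every other library, and SNORD16 had 1 count in control replicate 2 and Sev replicate 3 and 55 to 66 elsewhere. The exon-holding host of SNORD118, TMEM107, had 643 and 699 counts in the libraries where SNORD118 had 146 and 183, and 792 to 922 in the others. Of the 14, 9 were tested and none was called by edgeR; SNORA71A (unadjusted p = 0.0448), SNORD14C (0.0307) and SNORD32A (0.0492) were under 0.05 before adjustment. DESeq2 called 1 of the 9 and limma on log2(FPKM + 1) called 4.

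**Figure D5:**
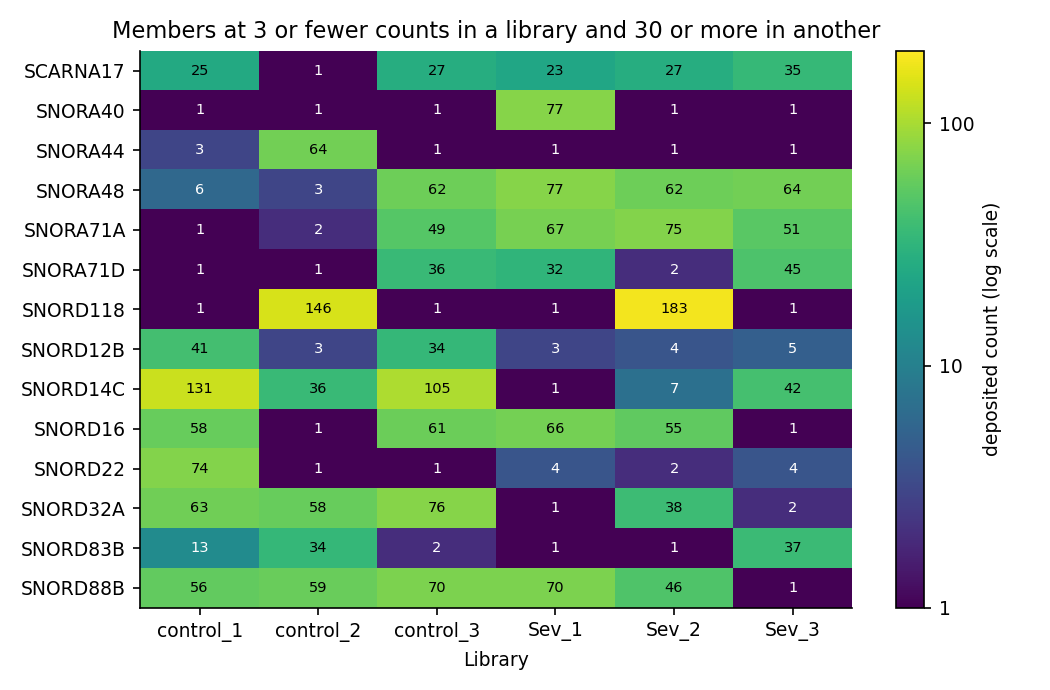
Deposited counts of the 14 members with at most 3 counts in a library and at least 30 in another, by library, coloured on a log scale. Values of 1 stand beside values of 30 to 183 within the control and within the Sev libraries, as for SNORD118 at 1, 146 and 1 in control.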

How the data were processed

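Total RNA of 3 control and 3 Sev libraries was sequenced strand-specifically, paired-end, after ribosomal RNA depletion. Per the labels' processing notes, bcl2fastq 2.19 and featureCounts were used with build hg 18; the aligner and annotation are not given in the sources used here. Gene values were deposited by the authors as whole-number counts and as FPKM, which divides by gene length and library size. Deposited counts of 1, 2 and 3 corresponded, from FPKM, to medians of 0.585, 1.5 and 2.21 reads, so the values deposited by the authors were taken as estimated counts rounded up to whole numbers. Plain counts had been assumed when the test was chosen, and the test was kept. Ensembl identifiers were joined to symbols, hosts, coordinates and sequences of GENCODE 29 (GRCh38), not to the notes' build.

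Members and lists were chosen with earlier results of these data known. Counts were tested in edgeR 4.0.16 (R 4.3.3; filterByExpr, TMM, quasi-likelihood, Benjamini-Hochberg over 27514 features). TMM factors were 0.918 to 1.08. Members named were, per class and direction, the 3 with the smallest p among called and non-overlapping ones, the 3 most abundant per class, RNAs of known role, hosts of 3 or more members with 9 fixed hosts or factors, and members next to the count minimum; other called members were named after their values were seen. The code was tested on simulated counts. Alternatives were DESeq2 1.42.0, limma 3.58.1 on log2(FPKM + pseudocount) with an FPKM minimum of 0.5, other scalings and filters, and leaving out each library.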

Additional observations from a re-analysis of the deposited data

How the results depend on the processing

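The median member had 167 counts over 6 libraries, which limits the precision of its fold change. Over 33 named and tested members, 430 of 488 values under alternatives kept direction and side of the threshold, 44 lost the call, 8 gained it and 6 changed sign: SNORD14A, negative in the reported fit, was at 0.0025 with DESeq2 size factors, 0.0029 in DESeq2, and -0.1399 to 0.1015 with 1 library left out, and SNORD116-23 at -0.3244 to 0.0459, the highest without Sev replicate 1. Of the 31 calls, DESeq2 also called 27, limma on log2(FPKM + 1) 27, library size scaling 24 and the fit with the replicate block 22. With library size only, 3 members passed the study's threshold upward, the C/D and H/ACA medians were -0.1281 and -0.1326, 3 scaRNAs were higher, hosts were 22 higher and 14 lower (median 0.0796), and snoRNP genes had 8 lower and a median of 0.0502. Requiring 10 counts in every library left fewer members to test, with 3 and 3 past the study's threshold and 2 H/ACA lower. limma on log2(FPKM + 1) called 29 members lower (14 C/D, 12 H/ACA, 3 scaRNA) and 11 H/ACA higher, with C/D and H/ACA medians of -0.1369 and -0.12. With a pseudocount of 0.1 these were 26 lower (13, 11 and 2), 11 higher, -0.1615 and -0.1564, with 14 past the study's threshold downward. Without the FPKM filter they were 17 lower, 9 C/D lower, 3 scaRNAs higher and 2 lower, -0.1369 and -0.1188. Raising the minimum to 120 counts gave an H/ACA median of 0.1114. Leaving out members that overlap an exon, which leaves fewer members, gave 5 lower (3 C/D, 2 H/ACA, 0 scaRNA; 5 past the study's threshold), 3 scaRNAs higher and a C/D median of 0.1803. Except where fewer features or samples entered, the cause was not tested. Samples with the same number did not deviate together (correlations -0.00723, 0.00351 and 0.027), so they share only a number; with the replicate block, 6 members were lower (3 C/D, 0 scaRNA). Leaving out 1 library at a time gave 14 to 19 members higher and 6 to 9 lower, 4 to 7 and 6 to 11 past the study's threshold, 6 to 8 and 2 to 4 C/D (median -0.0182 to 0.1068), 4 to 6 and 3 to 4 H/ACA (-0.0663 to 0.0824), 3 to 5 and 0 to 1 scaRNA (0.2367 to 0.4134), 26 to 40 and 9 to 11 hosts (0.182 to 0.2516), and 10 to 15 and 2 to 4 snoRNP genes (0.1478 to 0.2457).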

Other observations

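Below the count minimum, identical low values were frequent. Of the 552 SNORA, SNORD and SCARNA rows, 92 (16.7%) had exactly 1 count in all 6 libraries, against 363 of the 61496 rows of the table (0.59%). These were 67 of 314 C/D, 23 of 213 H/ACA and 2 of 25 scaRNA rows. Among them were SNORD35A, SNORD50B and SNORD14B, as well as 18 of 33 SNORD116 rows, whereas none of the 50 SNORD115 rows had this pattern. Of the 92 rows, 78 (84.8%) overlapped an exon of another gene on the same strand, compared with 103 of the 460 other rows of the class (22.4%). The FPKM values of these rows ranged from 0 to 0.264, with a median of 0.0661, so a count of 1 there stood for a fraction of a read or for none. What set these values was not tested.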
